A study of Homo sapiens with 6 samples.

Results

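Regions bound by NeuroD1 and regions carrying the histone mark H3K4me3 were examined around 6 genes for basic helix-loop-helix (bHLH) proteins of the neuronal lineage, NHLH1, NHLH2, NEUROD2, NEUROD4, NEUROD6 and HES6. A region belonged to the set if it lay within 50 kb of the span of one of these genes. The spans in build hg19, known to the nearest 1 kb, were 160337000 to 160343000 on chromosome 1 for NHLH1, 116379000 to 116384000 on chromosome 1 for NHLH2, and 37760000 to 37764000 on chromosome 17 for NEUROD2. For NEUROD4 the span was 55414000 to 55424000 on chromosome 12, for NEUROD6 it was 31377000 to 31381000 on chromosome 7, and for HES6 it was 239147000 to 239149000 on chromosome 2. In all, 76 of the 61250 distinct regions of the 4 peak lists met the rule, namely 33 of 20593 in H524 NeuroD1, 4 of 3854 in H82 NeuroD1, 23 of 18595 in H524 H3K4me3 and 16 of 18208 in H82 H3K4me3. H524 and H82 are established human small cell lung cancer cell lines, grown here without treatment, and each was profiled by chromatin immunoprecipitation sequencing with 1 library per antibody. With 1 library per group there were no replicates, so no value could be set against a replicate spread and no p-value is given. The depth of each library is unknown, and intervals are exact Clopper-Pearson 95% intervals that cover counting error only. They treat regions as independent, although the regions lie in the windows of 6 genes.

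Proteins of the bHLH class bind DNA as dimers at E-boxes, short sites of the form CANNTG, and the neurogenic members act in a cascade in which earlier factors switch on later ones. NeuroD1 belongs to the same family as NEUROD2, NEUROD4 and NEUROD6, which act in the differentiation of neurons, the first and last of these in the forebrain. NHLH1 and NHLH2 are bHLH factors of young postmitotic neurons. HES6 resembles the HES repressors of the Notch pathway, but in mouse and frog it hinders HES1 and promotes neuronal differentiation. H3K4me3 is a histone mark found mainly at promoters in use or held ready for use.

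The sequences before the gene starts are shown because NeuroD1 regions of H524 reached or lay near most of these starts. They are from RefSeq in build GRCh38.p14, which is not the build of the peak lists, so no region can be placed on them base by base. All 6 genes matched by symbol. Each run is the 250 bases before the outermost annotated start, 5′ to 3′ on the coding strand, at chr1:160366821-160367070 for NHLH1 (plus strand), chr1:115841127-115841376 for NHLH2 (minus strand), chr17:39607921-39608170 for NEUROD2 (minus strand), chr12:55019724-55019973 for NEUROD4 (plus strand), chr7:31340727-31340976 for NEUROD6 (minus strand) and chr2:238240039-238240288 for HES6 (minus strand). Capitals mark every CANNTG.
NHLH1: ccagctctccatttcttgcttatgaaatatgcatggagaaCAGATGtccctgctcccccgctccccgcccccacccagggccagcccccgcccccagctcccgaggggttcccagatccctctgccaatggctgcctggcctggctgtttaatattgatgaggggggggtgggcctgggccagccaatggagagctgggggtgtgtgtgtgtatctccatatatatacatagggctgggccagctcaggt
NHLH2: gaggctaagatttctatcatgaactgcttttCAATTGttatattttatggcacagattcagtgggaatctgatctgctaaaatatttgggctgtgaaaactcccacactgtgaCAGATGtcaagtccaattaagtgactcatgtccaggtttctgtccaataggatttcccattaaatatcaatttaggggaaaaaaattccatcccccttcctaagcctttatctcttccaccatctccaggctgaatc
NEUROD2: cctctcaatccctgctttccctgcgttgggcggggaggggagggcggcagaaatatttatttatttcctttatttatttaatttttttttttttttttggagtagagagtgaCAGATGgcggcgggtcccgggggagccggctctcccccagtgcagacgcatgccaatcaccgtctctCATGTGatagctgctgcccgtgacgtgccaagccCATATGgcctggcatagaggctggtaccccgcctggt
NEUROD4: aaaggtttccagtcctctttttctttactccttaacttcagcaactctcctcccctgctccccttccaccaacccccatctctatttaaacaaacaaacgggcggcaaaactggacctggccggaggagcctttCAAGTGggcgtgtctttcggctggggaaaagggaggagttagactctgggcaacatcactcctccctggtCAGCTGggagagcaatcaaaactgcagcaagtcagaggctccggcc
NEUROD6: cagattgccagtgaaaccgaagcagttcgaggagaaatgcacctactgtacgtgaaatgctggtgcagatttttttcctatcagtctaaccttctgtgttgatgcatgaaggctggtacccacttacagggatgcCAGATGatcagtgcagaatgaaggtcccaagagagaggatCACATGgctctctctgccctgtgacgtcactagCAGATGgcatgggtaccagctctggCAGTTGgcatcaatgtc
HES6: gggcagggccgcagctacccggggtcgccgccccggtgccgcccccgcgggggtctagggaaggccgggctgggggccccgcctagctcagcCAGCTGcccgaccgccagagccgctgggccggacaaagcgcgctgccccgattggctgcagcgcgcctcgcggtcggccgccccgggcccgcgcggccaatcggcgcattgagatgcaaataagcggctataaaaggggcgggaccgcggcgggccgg

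Each of the 6 stretches held at least 1 CANNTG, from 1 in NHLH1 and HES6 to 4 in NEUROD6, and 61.8% of the 35116 starts in the table held at least 1 in the same window. Of the E-box words known for NeuroD1, CAGATG (read on the other strand as CATCTG) occurred once or more in NHLH1, NHLH2, NEUROD2 and NEUROD6, against 12.2% of all starts. CAGCTG, which reads the same on both strands, occurred in NEUROD4 and HES6, against 14.0% of all starts. Both words are a subset of CANNTG. At least 1 of them stood before all 6 genes, against 24.3% of all starts, but the words were picked with these sequences in view. In NEUROD6, CAGATG stood at 115 and 42 bases before the start. It stood at 138 bases before the start of NEUROD2, 137 before that of NHLH2 and 210 before that of NHLH1. The word CAGCTG stood at 46 bases before the start of NEUROD4 and 158 before that of HES6. NHLH2 has an inner annotated start as well, with CAGCTG at 78 bases before it. Such matches describe letters and are not evidence of binding.

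NeuroD1 regions were listed around all 6 genes in H524 and around 3 in H82. H524 had 4 NeuroD1 regions near NHLH1, 6 near NHLH2, 9 near NEUROD2, 6 near NEUROD4, 3 near NEUROD6 and 5 near HES6. H82 had 1 near NHLH1, 1 near NEUROD4 and 2 near HES6, and none near NHLH2, NEUROD2 or NEUROD6. The total was 8.25-fold higher in H524, with 33 regions in H524 and 4 in H82, while the whole NeuroD1 list of H524 was 5.34-fold longer. On the chromosomes that carry the genes, H524 had between 3.17-fold (chromosome 1) and 5.15-fold (chromosome 7) as many NeuroD1 regions as H82. The excess around the 6 genes therefore has to be read against list length. When the H524 list was limited to its 3854 regions with the highest scores (the authors' value per region, read as −log10 of a q-value and compared only within a list), 7 regions remained near the genes in H524, against 4 in H82, a ratio of 1.75.

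**Figure D1:**
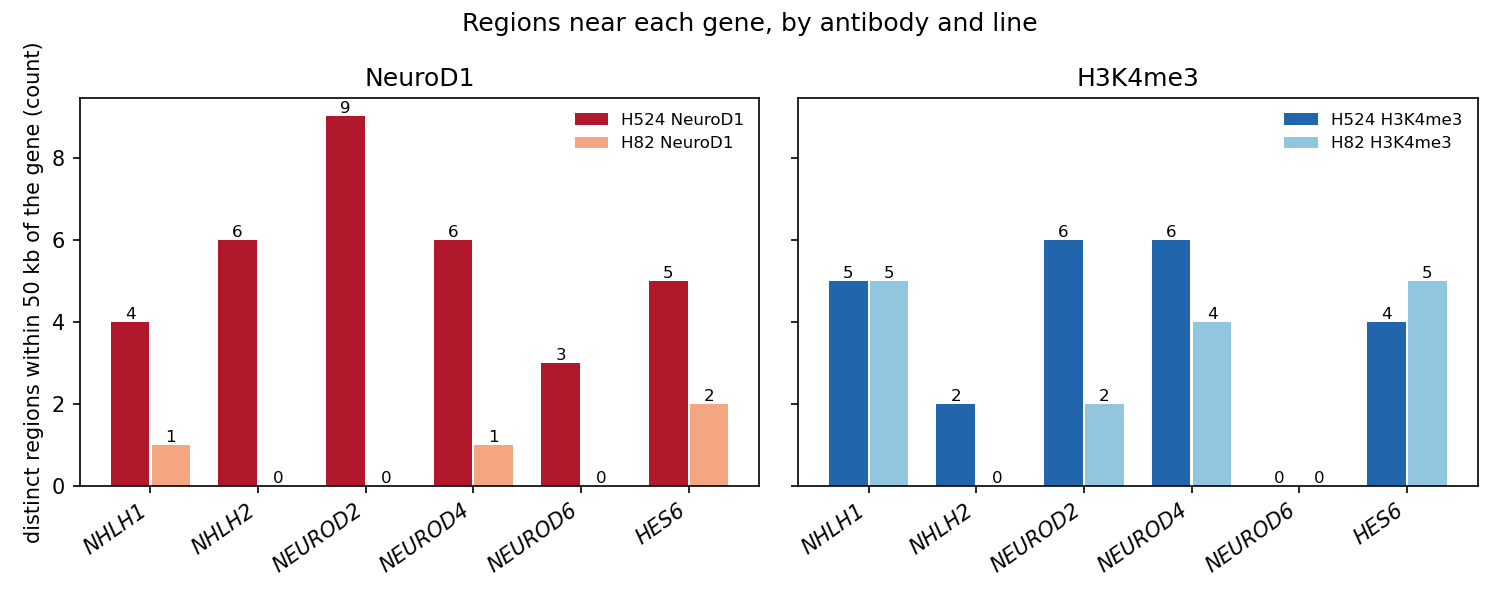
Number of distinct regions within 50 kb of each gene (y axis, count), by gene (x axis), for NeuroD1 on the left and H3K4me3 on the right, with H524 in dark and H82 in light bars. NeuroD1 counts run from 3 to 9 in H524 and from 0 to 2 in H82, whereas H3K4me3 counts of NHLH1 are 5 in both lines and NEUROD6 has none.

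NeuroD1 regions of H524 were dense around these genes. The windows, 631 kb in all, held 52.3 NeuroD1 regions per Mb in H524 and 6.34 in H82, against 7.01 per Mb in H524 and 1.31 per Mb in H82 over the stretches of all chromosomes that hold regions. The ratio of window to whole was 7.46 in H524 and 4.83 in H82, and the same ratio was 5.76 for H3K4me3 of H524 and 4.09 for H3K4me3 of H82. Against only the 5 chromosomes that carry the genes, the ratios were lower. They were 6.94 in H524 and 3.33 in H82 for NeuroD1, and 5.61 in H524 and 3.22 in H82 for H3K4me3. By either measure the windows were rich in regions of either kind. Regions carrying the mark were used for comparison. Among all H3K4me3 regions of H524, 64.0% had a NeuroD1 region of H524 within 50 kb and the median number was 1, whereas the 6 genes had between 3 and 9. NEUROD2, with 9, had more of them than 98.9% of these H3K4me3 regions did, and NEUROD6, with 3, had more than 78.9% did. In H82, 33.4% of the H3K4me3 regions had a NeuroD1 region of H82 within 50 kb, and 3 of the 6 genes did. The median H3K4me3 region is narrower than the spans of the genes, which widens the windows of the genes, and neighbouring H3K4me3 regions share NeuroD1 regions.

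**Figure D2:**
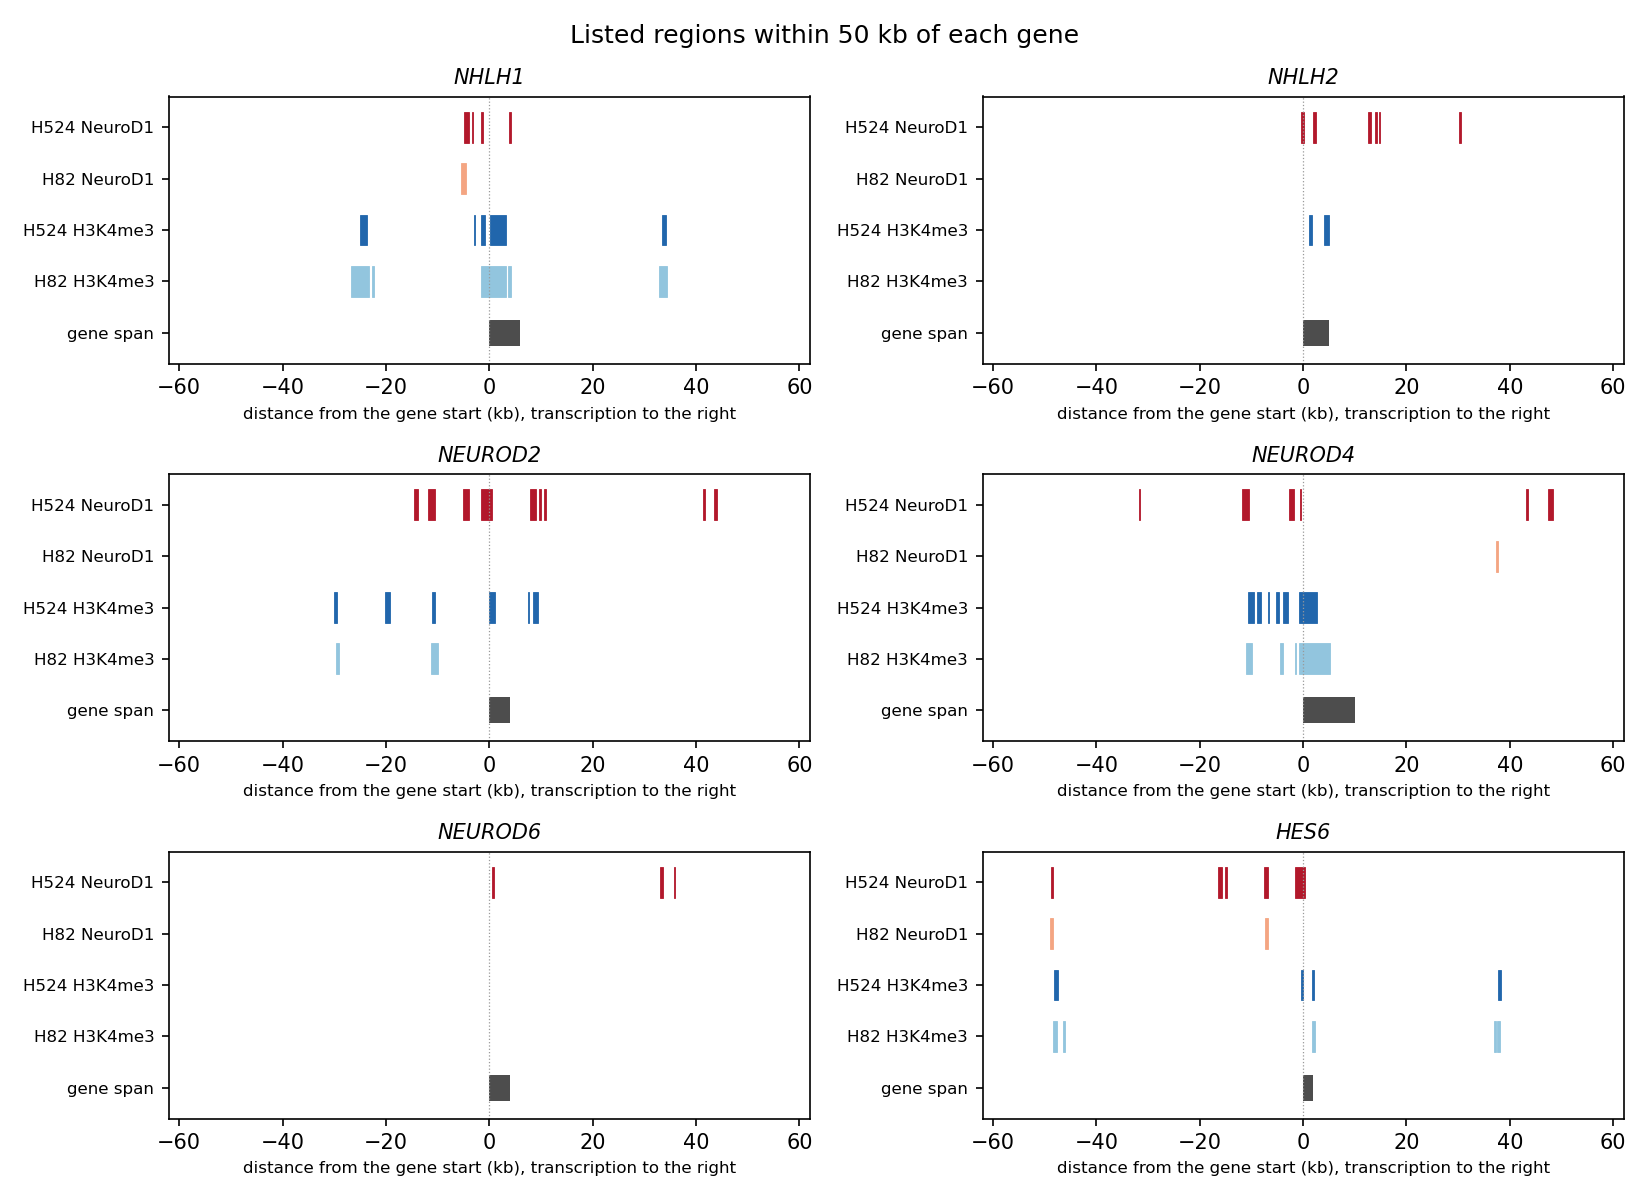
Regions of the 4 lists by distance from the start of each gene (x axis, kb, transcription to the right), 1 panel per gene, with the gene span as a dark bar at the bottom. H524 NeuroD1 has regions in every panel, H82 NeuroD1 in those of NHLH1, NEUROD4 and HES6, and the panel of NEUROD6 has no H3K4me3.

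At the genes themselves NeuroD1 was listed in H524 and not in H82. In H524 a NeuroD1 region touched the gene span or lay within 1 kb of it at 6 of 6 genes, and in H82 at 0 of 6. Of all H3K4me3 regions, 27.9% in H524 and 10.7% in H82 had a NeuroD1 region of their own line within 1 kb. These shares are not a like-for-like background. The median H3K4me3 region was 526 bp wide in H524 and 563 bp in H82, whereas the gene spans were 2 to 10 kb. More sequence was therefore searched per gene than per H3K4me3 region. H3K4me3 itself was listed at 5 of the 6 genes in H524, all but NEUROD6, and at 3 in H82, namely NHLH1, NEUROD4 and HES6. At HES6 the H82 region lay at the 3′ end, 1.63 to 2.33 kb after the start. The share of all genes with the mark was not computed, because no annotation in hg19 was used, so these counts have no background. With the H524 NeuroD1 list limited as above, only the regions at NEUROD2 and HES6 remained at their genes. Counting regions within 5 kb of the span brought in 1 gene in H82, which was NHLH1.

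**Figure D3:**
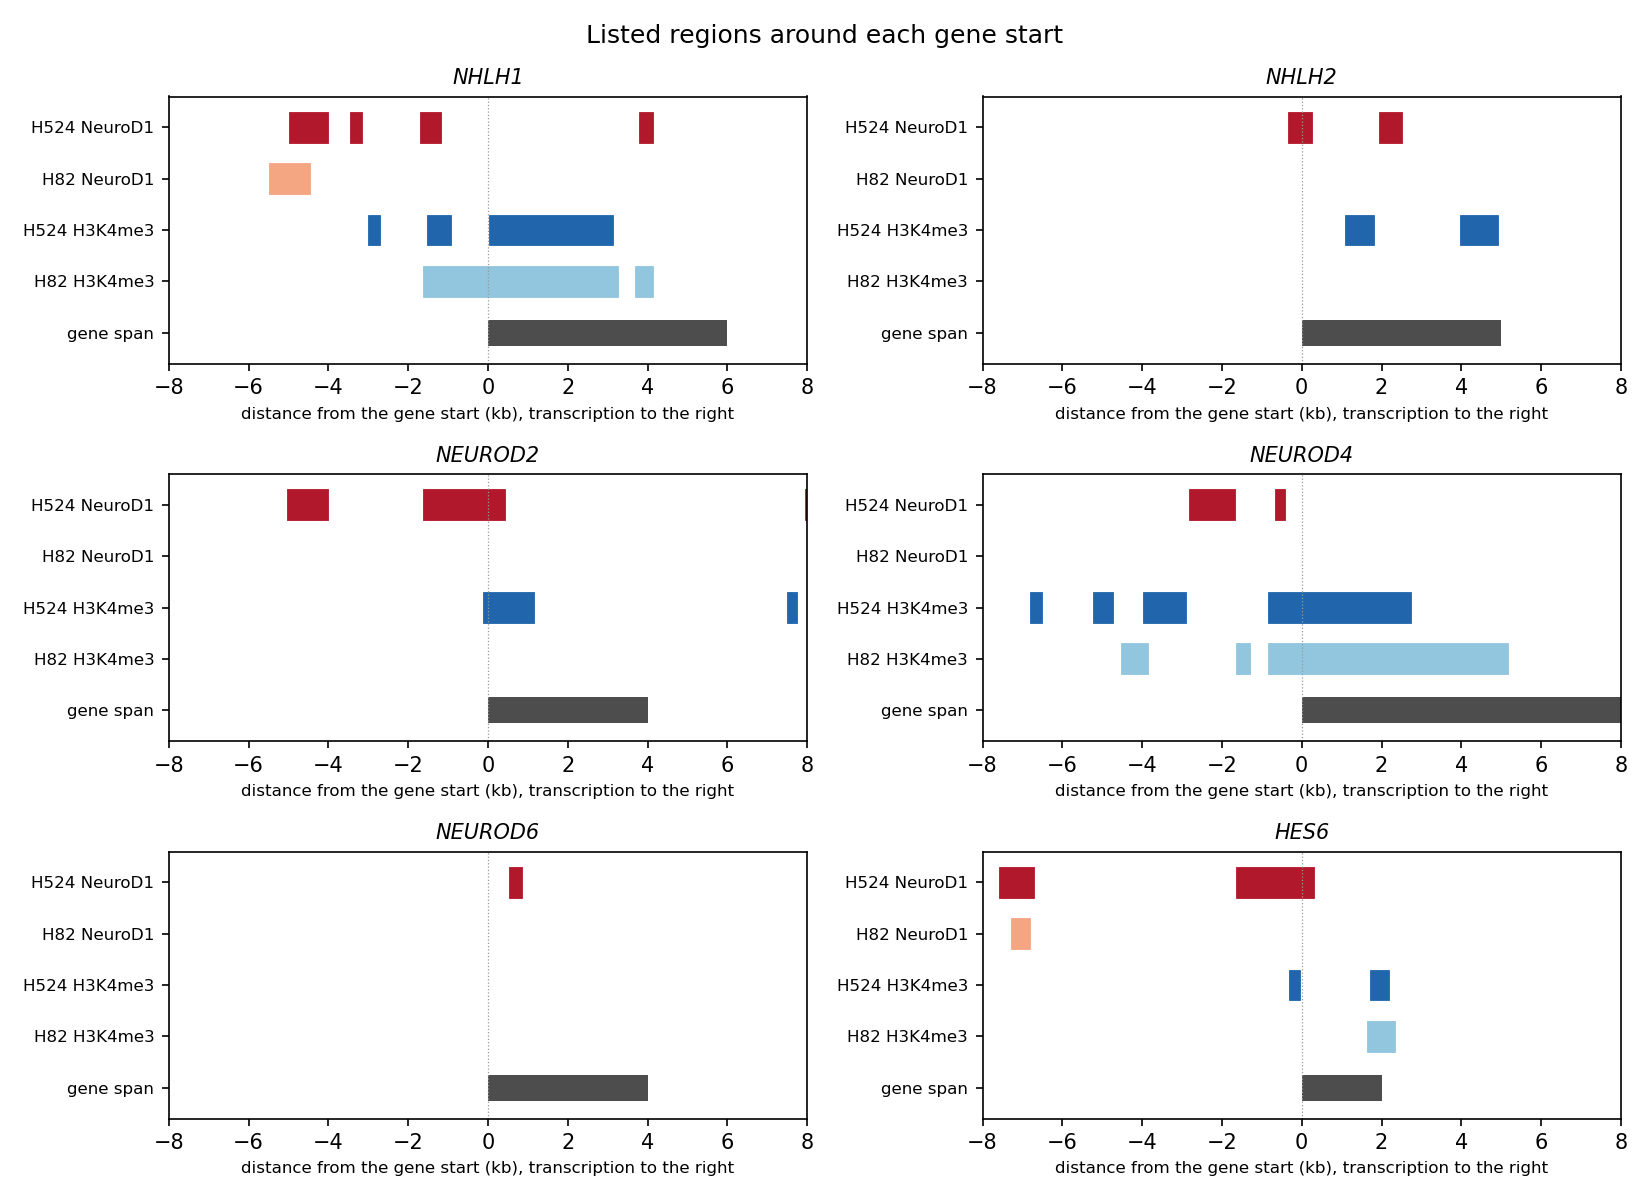
The same regions within 8 kb of each gene start (x axis, kb, transcription to the right), 1 panel per gene and 1 row per list, with the gene span at the bottom. In H524 a NeuroD1 region lies over the rounded start of NHLH2, NEUROD2 and HES6, reaching 0.246 to 0.432 kb into the span, which is within the rounding of the spans to 1 kb, and H82 NeuroD1 appears only upstream of NHLH1 and HES6.

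NHLH1 had an overlapping upstream NeuroD1 region and a wide promoter mark in both lines. NeuroD1 lay upstream of the gene at 160332005 to 160333001 in H524 and 160331502 to 160332542 in H82, and the regions shared 538 bp. Their scores were 11.5 in H524, the highest there near this gene, and 8.20 in H82, at percentiles of 89.4 in the H524 list and 87.9 in the H82 list. The H524 region ended 4 kb before the start, and the H82 region 4.46 kb before it. Neither overlapped H3K4me3 of its line, which began 0.977 kb away in H524 and 2.81 kb away in H82. H524 had further NeuroD1 regions at 160333552 to 160333851 (3.22), 160335286 to 160335827 (1.76) and, inside the gene, 160340789 to 160341129 (4.52). The second of these overlapped H3K4me3 of both lines. The region inside the gene overlapped H3K4me3 of H82 (160340690 to 160341139, score 4.36) and no H3K4me3 of H524.

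The promoter mark over NHLH1 was wide in both lines and ranked higher in H82. It covered 160337029 to 160340139 in H524, 3.11 kb with a score of 5.10, and 160335357 to 160340251 in H82, 4.89 kb with a score of 14.7. By width these stood at the 99.6th percentile in H524 and the 99.7th in H82, and by score at the 68.0th in H524 and the 98.9th in H82. H524 had a separate region before the start, 160335475 to 160336073 (7.69), which the single H82 region included. Farther upstream the mark was shared at 160311879 to 160313342 in H524 (7.62) and 160310232 to 160313707 in H82 (13.5). Downstream it was shared at 160370379 to 160371175 in H524 (6.26) and 160369930 to 160371373 in H82 (13.0). The neighbouring genes are NCSTN and VANGL2. Weaker H3K4me3 regions in a single line were 160333979 to 160334296 in H524 (2.79) and 160314224 to 160314648 in H82 (2.25).

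NHLH2 was listed in H524 alone under both antibodies. The NeuroD1 region 116383754 to 116384336 (2.55) lay at the start, which it reached past by 0.246 kb, less than the rounding of the spans can shift a start, and 116381494 to 116382071 (2.68) lay inside the gene. The H3K4me3 regions 116382194 to 116382919 (3.48) and 116379079 to 116380031 (2.80) also lay inside it. Of these, 116382194 to 116382919 was 122 bp from the NeuroD1 region inside the gene and 834 bp from that at the start. The 3 highest NeuroD1 scores were 4.11 at 116370908 to 116371460, 3.96 at 116353423 to 116353812 and 2.68 at the region inside the gene. The other regions, both beyond the 3′ end, each scored 1.47. In H82 no NeuroD1 region lay within 50 kb, and the nearest H3K4me3 region was 194 kb from the gene.

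NEUROD2, which encodes a factor of cortical neurons, had 9 NeuroD1 regions in H524, the most of the 6 genes in the full list, and none in H82. That order did not hold for higher scores. At a score of at least 2, NEUROD2 had 3 in H524, against 6 for NEUROD4, 5 for HES6 and 4 for NHLH2, and with lists of equal length it had 2, against 3 for NEUROD4. The region at its start, 37763568 to 37765634, was 2.07 kb wide with 3 summits and wider than 99.4% of the H524 list. Its score was 10.2, which put it at the 86.5th percentile of the list. It ran from 1.63 kb before the start to 0.432 kb after it, with the start known only to 1 kb, so that it lay at the start but need not cross it, and it overlapped the H524 H3K4me3 region 37762852 to 37764134 (score 5.53) by 567 bp. H82 had neither antibody listed at the gene, so NeuroD1 and the mark were listed at the start of NEUROD2 in H524 alone. The next scores in H524 belonged to the regions 37719893 to 37720562 (9.59), beyond the 3′ end, and 37774618 to 37775839 (8.15), upstream. The upstream region overlapped H3K4me3 of both lines, at 37774619 to 37775042 in H524 and 37773979 to 37775262 in H82, with scores of 3.35 in H524 and 7.75 in H82. The other 6 NeuroD1 regions scored between 1.42 and 1.97. Beyond the 3′ end H524 had a further H3K4me3 region at 37754519 to 37755643 (4.49), which overlapped a weak NeuroD1 region of H524 (1.94), and its remaining 3 scored between 1.77 and 3.15. The outermost H3K4me3 region was shared, at 37793446 to 37794003 in H524 (1.86) and 37793084 to 37793625 in H82 (4.45), on the side of the neighbouring gene PPP1R1B. CDK12 is the neighbour on the other side.

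NEUROD4, a factor of retinal and other neurons in mouse, held the 2 highest NeuroD1 scores of the set, both in H524. The region 55382239 to 55382545 scored 17.5 (rank 849, 95.9th percentile) at 31.5 kb upstream, although it was only 307 bp wide. The region 55402176 to 55403583 scored 14.2 (rank 1382) at 10.4 kb upstream and overlapped H3K4me3 of both lines, at 55403424 to 55404589 in H524 (5.87) and 55402975 to 55404198 in H82 (2.64). The region 55461393 to 55462260 (9.22) lay 37.4 kb beyond the gene. Nearest to the gene was 55413331 to 55413588, a weak region of 258 bp (2.45) that ended 0.412 kb before the start, inside the H3K4me3 regions of both lines. The remaining H524 regions scored 7.59 and 2.66. H82 had 1 NeuroD1 region, 55451303 to 55451815 (4.58, 63.6th percentile), 27.3 kb beyond the gene and without a counterpart in H524.

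The mark at the start of NEUROD4 was among the widest in either list, and it began at nearly the same base before the start in both lines. It ran from 55413156 to 55416726 in H524, 3.57 kb with 8 summits, and from 55413153 to 55419165 in H82, 6.01 kb with 11 summits. By width it stood at the 99.8th percentile in H524 and the 99.9th in H82. Its score was 8.83 in H524, at the 91.9th percentile, and 10.5 in H82, at the 95.4th. Upstream, H524 listed 5 further H3K4me3 regions within 9.41 kb of the gene and H82 listed 3 within 9.80 kb. Apart from the shared region near the upstream NeuroD1 region, these were led by 55410018 to 55411108 in H524 (5.44), which overlapped 55409480 to 55410153 in H82 (6.52). H82 alone had 55412357 to 55412700 (6.03), and the remaining 3 of H524 scored between 1.45 and 3.52. NHLH1 and NEUROD4 thus shared a wide mark in both lines, and no NeuroD1 region of H82 lay within 1 kb of either gene.

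NEUROD6, like NEUROD2 a factor of cortical neurons, had NeuroD1 in H524 but no mark in either line. Its 3 NeuroD1 regions were weak, with 2.47 at 31380158 to 31380484, 1.97 at 31347538 to 31348015 and 1.52 at 31344967 to 31345263, at percentiles of 22.4, 14.4 and 5.60 of the list. The first lay inside the gene, between 0.516 and 0.842 kb after the start. It was 287 kb away from the nearest H3K4me3 region of H524. H82 listed nothing within 50 kb under either antibody, which at unknown depth does not show that either was absent.

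HES6 carried the highest-scoring NeuroD1 region listed at any of the 6 genes in H524. The region 239148701 to 239150646 scored 11.9 (rank 2056 of 20593, 90.1st percentile), was 1.95 kb wide, and ran from 1.65 kb before to 0.299 kb after the start, with the same limit on the start as at NEUROD2. It covered a weak H524 H3K4me3 region of 279 bp at 239149051 to 239149329, which scored 1.45. H82 had no region of either antibody there. Both lines did list H3K4me3 at the 3′ end of the gene, at 239146816 to 239147280 in H524 (4.30) and 239146672 to 239147371 in H82 (3.59). Upstream of HES6, NeuroD1 was shared by the lines at 239155714 to 239156601 in H524 and 239155823 to 239156298 in H82, with scores of 5.66 in H524 and 4.27 in H82. A second shared region lay near the limit of 50 kb, at 239197395 to 239197821 in H524 (3.71) and 239197437 to 239197934 in H82 (1.73), on the side of the neighbouring gene PER2. The H524 NeuroD1 region lay 336 bp from H3K4me3 of H524 at 239196453 to 239197058 (4.30) and overlapped H3K4me3 of H82 at 239196635 to 239197434 (2.14) by 40 bp. The regions 239163746 to 239164241 (6.55) and 239164690 to 239165451 (4.04) were listed in H524 alone. The extent of PER2 in hg19 was not available, so whether these regions or the shared ones upstream of HES6 lie inside PER2 was not examined. Neither shared NeuroD1 region of HES6 overlapped H3K4me3 of its own line, although in H82 only 2 bp separated the outer one from the mark. Beyond the 3′ end, on the side of ILKAP, H3K4me3 was shared at 239110738 to 239111326 in H524 (3.48) and 239110875 to 239111390 in H82 (4.65). H82 alone had weak H3K4me3 at 239111659 to 239112093 (1.54) and 239195145 to 239195458 (1.49).

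Scores separated the genes within H524. Above the median of the NeuroD1 list were 4 of 6 regions near NEUROD4, 3 of 5 near HES6, 2 of 4 near NHLH1, 3 of 9 near NEUROD2, 1 of 6 near NHLH2 and 0 of 3 near NEUROD6. Over all 33 regions the median percentile was 36.5, and 11 regions (33.3%, 18.0 to 51.8) scored under 2, against 15.4% of the list, so by score they sat lower than the list as a whole. By width they sat somewhat higher, with a median of 542 bp and a median width percentile of 60.0. Several summits were found in 8 of the 33 (24.2%, 11.1 to 42.3), against 12.1% of the H524 list. For H3K4me3 this was 7 of 23 regions in H524 (30.4%, 13.2 to 52.9), against 19.7% of that list, and 4 of 16 in H82 (25%, 7.27 to 52.4), against 22.4% of that list. The 4 NeuroD1 regions of H82 had percentiles of 87.9, 63.6, 60.2 and 10.2.

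**Figure D4:**
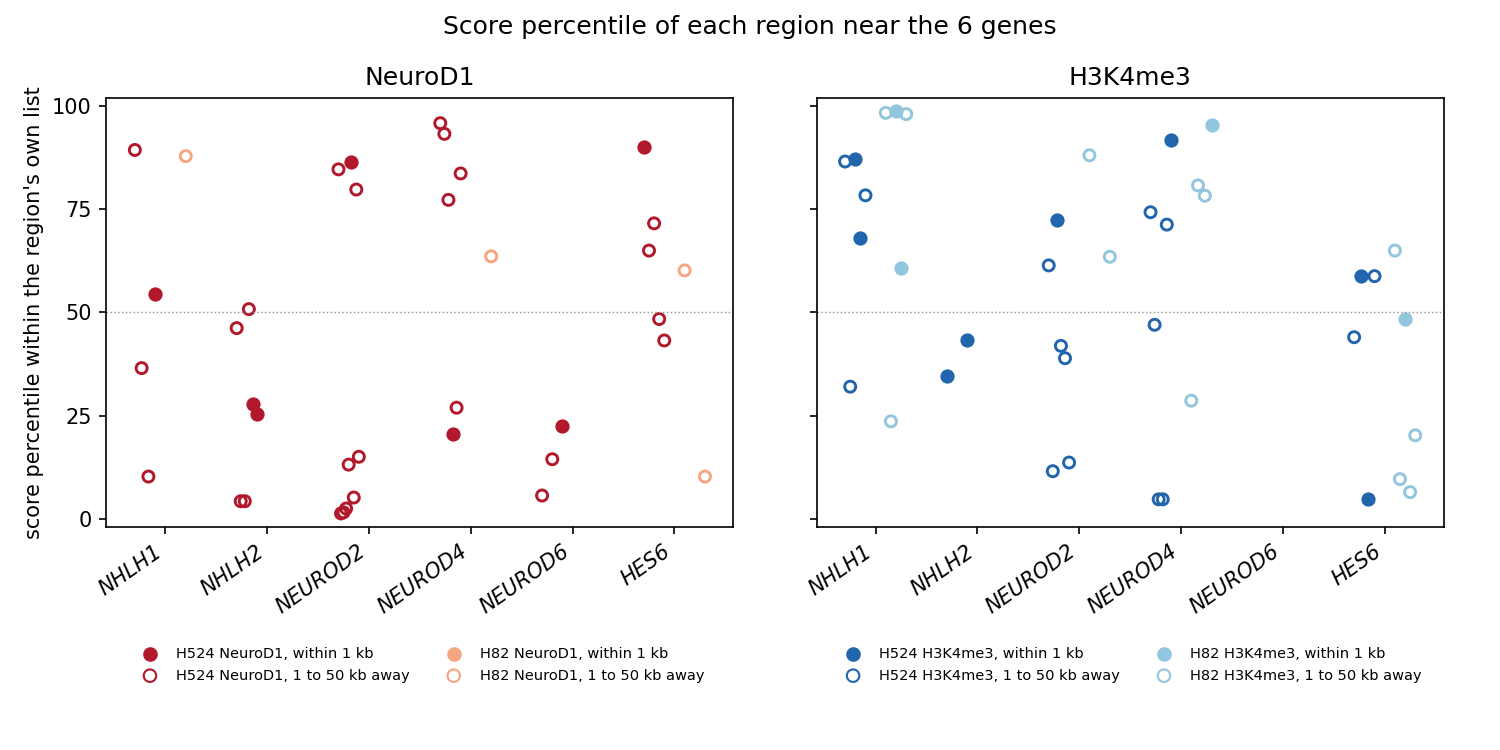
Score percentile of each region within its own list (y axis, 50 is the list median) by gene (x axis), for NeuroD1 on the left and H3K4me3 on the right. Filled points touch the gene span or lie within 1 kb of it, open points lie farther away, and in H524 the filled NeuroD1 points are high at HES6 (90.1) and NEUROD2 (86.5) and at or below 54.4 elsewhere.

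Sharing of NeuroD1 between the lines was near the background in H524, and in H82 it rested on 4 regions. In H524, 3 of 33 regions (9.09%, 1.92 to 24.3) overlapped NeuroD1 of H82, against 9.98% of the whole list. In H82, 3 of 4 regions (75%, 19.4 to 99.4) overlapped NeuroD1 of H524, against 53.6% of the whole list. With lists of equal length it was 1 of 4 (25%, 0.631 to 80.6), for which no whole-list share was computed. The shared sites were 1 upstream of NHLH1 and 2 upstream of HES6, and none lay within 1 kb of a gene. For H3K4me3, 12 of 23 regions in H524 (52.2%, 30.6 to 73.2) were found in H82, against 52.9% of the list. In the other direction it was 11 of 16 H82 regions (68.8%, 41.3 to 89.0), against 52.4% of the list. The intervals from the full lists all include the share of the whole list.

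NeuroD1 overlapped the promoter mark of its own line at 7 of 33 regions in H524 (21.2%, 8.98 to 38.9), against 16.0% of the whole list, and at 0 of 4 in H82 (upper bound 60.2%), against 29.4%. The 7 regions were 3 at NEUROD2, 2 at NEUROD4, 1 at NHLH1 and 1 at HES6. The mark of H82 was overlapped by 6 of the 33 regions of H524 (18.2%, 6.98 to 35.5), against 15.6% of the list. Of the 33, 4 carried the mark of both lines, against 11.2% of the list, and 24 carried neither, against 79.6%. The mark of H524 alone was carried by 3, against 4.82% of the list, and that of H82 alone by 2, against 4.41%. As shares of the 33 these were 12.1%, 72.7%, 9.09% and 6.06%, and all 4 intervals include the share of the list. The 3 with the mark of H524 alone were at the starts of NEUROD2 and HES6 and beyond the 3′ end of NEUROD2. With the 7 that overlapped it, 15 of the 33 (45.5%, 28.1 to 63.6) were within 1 kb of H3K4me3 of H524, against 21.2% of the whole list. Over 10 kb away were 11 of the 33 (33.3%, 18.0 to 51.8), against 68.9% of the list. All H524 NeuroD1 regions near NHLH1 were within 1 kb of the mark and none near NEUROD6 was. The 33 regions are therefore not independent, and both intervals may be too narrow. Regions near the 6 genes thus lay closer to the mark than the list did, in windows that were themselves rich in H3K4me3, as given above.

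With a limit of 100 kb in place of 50 kb, NeuroD1 regions numbered 38 in H524 and 4 in H82. H3K4me3 regions numbered 26 in H524 and 20 in H82. Around NEUROD2 the wider limit gave 13 NeuroD1 regions in H524, against 9. With a limit of 25 kb, NeuroD1 regions numbered 24 in H524 and 2 in H82, and H3K4me3 regions 19 in H524 and 10 in H82. Just inside the limit of 50 kb were the outer NeuroD1 regions of HES6, 48.4 kb from the gene in both lines. Just outside it was a NeuroD1 region of H524 at 37704965 to 37706270, 53.7 kb from NEUROD2, with a score of 4.26. For H3K4me3 the outermost region inside the limit lay 47.6 kb from HES6 in H82, and the first outside it lay 72.3 kb from NEUROD4 in H82.

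For H3K4me3 the lines differed less in number. The whole H3K4me3 list of H524 was 1.02-fold as long as that of H82, and on the chromosomes of the 6 genes H524 had between 0.723-fold (chromosome 1) and 0.978-fold (chromosome 17) as many H3K4me3 regions as H82. Around the 6 genes it had 1.44-fold as many, with 23 regions in H524 and 16 in H82. The input libraries were not analysed here, and the part of copy number in these counts was not tested.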

How the data were processed

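NeuroD1 and H3K4me3 were profiled by chromatin immunoprecipitation sequencing in untreated H524 and H82 cells, with 1 library per antibody and line. The submitters' processing notes list MACS2 2.1.1, Bowtie 1.1.2, Trimmomatic 0.38, R 3.5.1 with ChIPseeker 1.18.0, Picard 1.118, bcl2fastq 1.8.4 and SAMtools 1.9, and build hg19, with no role or order. Settings and any use of the inputs as controls were not given in the sources used here, and reads per library are unknown. The authors deposited a score per entry, taken here from its values to be the −log10 of an adjusted p-value (q-value), since the lowest was 1.304 and −log10 of 0.05 is 1.301. Scores were compared only within a list.

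Entries with the same interval, 1 per summit, were merged to 1 region with the highest score. Coordinates are 1-based. Gene spans came from the rule of the gene set, strand, neighbours and sequences from RefSeq tables of GRCh38.p14, of which only gene order and strand were applied to the lists. Distances from a start carry the rounding of the spans to 1 kb. Overlap needed 1 bp. The counting was checked on shifted copies of H524 NeuroD1 regions and on made-up intervals. The answers were fixed by how these were made, so only the arithmetic was checked. Density over whole chromosomes used the stretch from the first to the last region of any list. Scripts ran in Python 3.11.15 with pandas 2.3.3 and numpy 2.4.6, intervals came from scipy 1.17.1 and plots from matplotlib 3.10.9.

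The genes, lists and comparisons were chosen with earlier results of these data known. All 6 genes were described, with every region where a list had 5 or fewer near a gene, otherwise the nearest, the 3 highest-scoring and the range of the others, and regions that overlap. Other proneural, HES and HEY genes were not analysed here, because no annotation in hg19 was used. Alternatives changed the distance limit, the score threshold, the list lengths, the merging and the overlap rule.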

Additional observations from a re-analysis of the deposited data

How the results depend on the processing

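Of 72 alternative values for the counts and shares over the 6 genes, 61 stayed within 1.5 times the reported count or within the interval of the reported share, and 11 did not. Some of the 61 could not have moved. Equal lengths left both H82 lists as they were, so their counts stayed the same. The H524 H3K4me3 list was cut only from 18595 to 18208 regions. Shares of H82 NeuroD1 were judged against wide intervals from 4 regions, so 25% counted as within the interval of 75%. With lists of equal length, H524 NeuroD1 had 7 regions near the genes and a region at 2 genes. Of the 7 regions, 42.9% (3 of 7, 9.9 to 81.6) overlapped H3K4me3 of H524, a wide interval that includes the reported share. With the same lists, 25% (1 of 4) of the H82 NeuroD1 regions overlapped NeuroD1 of H524, which was within the interval of the reported share. Whole-list shares were not computed at equal length. A shorter H524 list could only keep or lower the share for any set of H82 NeuroD1 regions. A distance limit of 25 kb left 2 NeuroD1 and 10 H3K4me3 regions in H82, and 100% of those 2 NeuroD1 regions overlapped NeuroD1 of H524. A limit of 5 kb for a region at a gene gave 1 gene in H82 NeuroD1. Entries as deposited numbered 39 for H524 H3K4me3 and 36 for H82 H3K4me3, since regions with several summits were counted repeatedly. When regions up to 1 kb apart counted as overlapping, 45.5% (15 of 33) of the H524 NeuroD1 regions met H3K4me3 of H524. For the whole H524 NeuroD1 list this was 21.2%. Under the same rule, 100% (16 of 16, 79.4 to 100) of the H82 H3K4me3 regions met H3K4me3 of H524. The share of the whole H82 H3K4me3 list was not computed under that rule, so the 100% has no background.

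A score of at least 2 left NeuroD1 at all 6 genes in H524, with 22 regions near the genes in H524 and 3 in H82. The number of genes with NeuroD1 in H82 was already 0 and could not rise at a higher threshold. Of 120 alternative counts per gene and list, 99 stayed within 1.5 times, and some of the 99 could not have moved, for the reasons given above. No paired analysis was possible because each antibody and line had 1 library. For the same reason no replicate could be left out. Reads per library are unknown, so whether the missing NeuroD1 regions of H82 reflect depth cannot be told apart from a difference between the lines.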
